A study of Mus musculus with 9 samples.

Results

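Myeloid cells with low surface Ly6C were compared with those carrying high Ly6C, both taken from the mouse hindpaw 24 h after an incision. The comparison uses 6 of the 9 arrays of the study, 3 for Ly6C low and 3 for Ly6C high, and covers all 22180 genes with a probe set of their own. The mice were male C57BL/6J, 8 weeks old, and no other genotype or drug is given for either group. The plantar side of the wounded paw was made into a cell suspension, and cells that were CD11b+ and Ly6G- were sorted by flow cytometry into Ly6C high, medium and low gates. CD11b is an integrin chain of myeloid cells and Ly6G a surface protein of neutrophils, so both groups share the same exclusion of neutrophils. RNA was amplified before it was hybridised to Affymetrix arrays, and the values are log2 intensities. All cells were collected on a single day. Whether replicates are separate animals is not stated, and each p-value therefore measures only how far these samples spread, which may be technical variation. In sorted bulk samples of this kind, fewer cells of a type and less RNA per cell cannot be told apart.

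Ly6C is a small lipid-anchored surface protein. Classical monocytes carry much of it when they leave the blood for injured tissue, and they lose it as they turn into macrophages. Macrophages that lived in the dermis before the injury, and dermal dendritic cells, carry little of it. A gate on low Ly6C in a wound can therefore hold resident macrophages, dendritic cells and monocyte-derived cells, and the arrays give the mean over all of them.

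Over all genes, 1258 (5.67%) differed between the gates at a limma adjusted p under 0.05. Of these, 744 (3.35% of all genes tested) were higher in Ly6C low and 514 (2.32%) were lower. The gates did not overlap, with all arrays of a gate above all arrays of the other, for 4464 genes (20.1%), 2520 (11.4%) of them higher in low. Called genes differed by a median log2 value of 0.98 upwards and -0.97 downwards, against 0.012 over all genes. At least 2-fold were 598 called genes (2.7%), 355 (1.6%) higher and 243 (1.1%) lower. At least 4-fold were 83 higher and 66 lower, and at least 16-fold 8 and 4. Called genes were more frequent among bright genes, at 927 (14.7%) of the 6306 genes that reached a log2 value of 6 on 3 arrays or more. Of those, 509 (8.07%) were higher and 418 (6.63%) lower. No gene was at or under the array median throughout a gate and at 8 or more throughout the other. The share of calls that were higher was 59.1%, but 53.4% after a repeated quantile normalization and 55.1% after centring the arrays. The count of calls was 596 without low replicate 1, 649 without low replicate 2, 781 without high replicate 3 and 800 without high replicate 2. Of the calls, 287 higher and 181 lower genes were called without each of the 9 arrays in turn. At least 2-fold, 394 genes were called without low replicate 1.

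**Figure D1:**
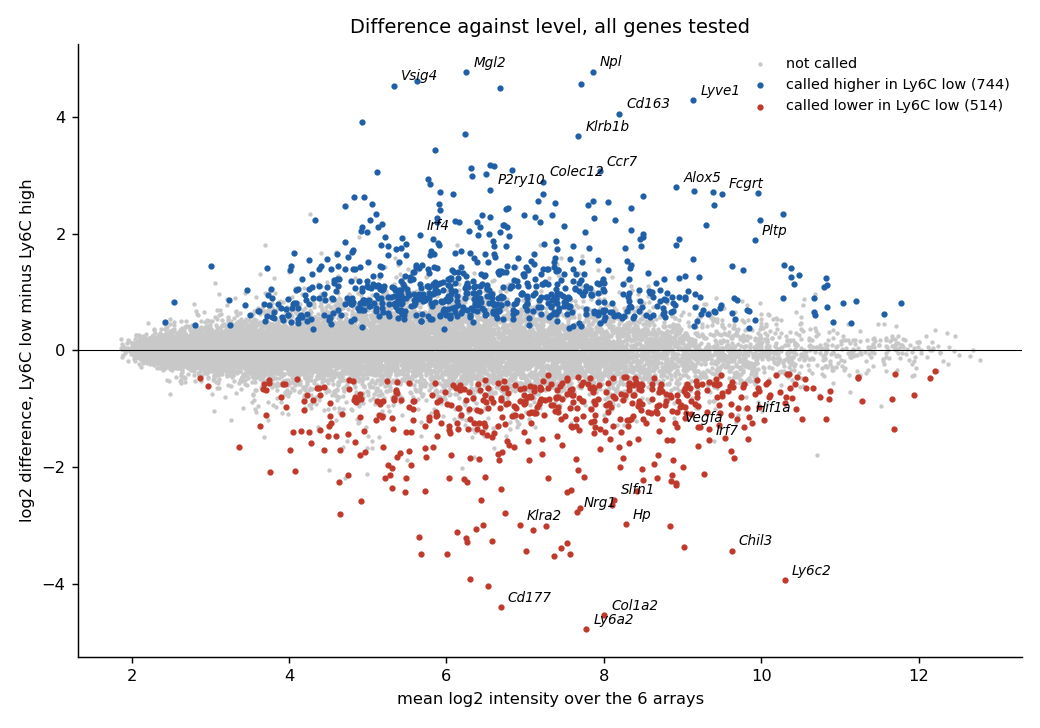
Log2 difference, Ly6C low minus Ly6C high, against the mean log2 intensity over the 6 arrays, 1 point per gene. Blue points are the 744 genes called higher in Ly6C low, red points the 514 called lower and grey points the genes not called, and called genes lie over the whole range of levels.

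Across genes, correlations within a gate were 0.983 to 0.989, and those between arrays of low and high 0.964 to 0.973. Array medians were 3.93 to 4.1. Over the called genes, each array was placed between the gate means, with 0 for high and 1 for low. The high arrays lay at 0.05, 0.01 and -0.05 (replicates 1 to 3) and the low arrays at 1.06, 1.03 and 0.92. The medium arrays, which enter the fit but not the comparison, lay at 0.35, 0.36 and 0.26, nearer to high. Low replicate 3 was the low array nearest to high for 395 (53.1%) of the higher genes and 264 (51.4%) of the lower genes.

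The gene of the sorted protein and the markers Chil3, Cd163 and Lyve1 were read first. Ly6c2, which encodes Ly6C, was at 12.26, 12.48 and 12.08 on the high arrays and at 7.69, 7.90 and 9.40 on the low arrays, with low replicate 3 the highest of the low arrays. Chil3, a chitinase-like protein of recently recruited monocytes, was at 11.20, 11.26 and 11.56 in high and at 7.03, 7.53 and 9.16 in low, with the same array highest. Cd163, the scavenger receptor for haemoglobin bound to haptoglobin, was at 6.31, 6.37 and 5.83 in high and at 10.29, 10.40 and 9.95 in low. Lyve1, a hyaluronan receptor of dermal macrophages and lymphatic vessels, was at 7.17, 7.55 and 6.27 in high and at 11.33, 11.39 and 11.11 in low. None of these 4 markers overlapped between the gates, and each passed the test (adjusted p = 0.00102, 0.00344, 9.98e-05 and 0.00181). The gate itself selects on the first of them, so these values are no independent check of the labels. Itgam, which encodes the CD11b used in the sort, did not overlap between the gates but missed the threshold (difference -0.44, limma adjusted p = 0.0579). Among 19 measured genes common to myeloid cells, Mpeg1, Cybb, Cd14 and Aif1 were lower in low and none was higher. Over all genes the shares were 2.32% and 3.35%. Of these, Mpeg1, a pore-forming protein of macrophages, kept its call without each array (log2 difference -0.97, adjusted p = 0.00141). The other calls were lost without 5 to 8 of the arrays (up to an adjusted p of 0.125, Aif1 without low replicate 2). Of the 19 differences, 5 were above 0. The median difference of the list was -0.07, and 0.02 after quantile normalization. Csf1r, the receptor for the macrophage growth factor, was at 10.57 ± 0.16 (SD, n = 3) in high and 10.82 ± 0.16 in low, a difference of 0.25 (95% confidence interval -0.05 to 0.55).

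**Figure D2:**
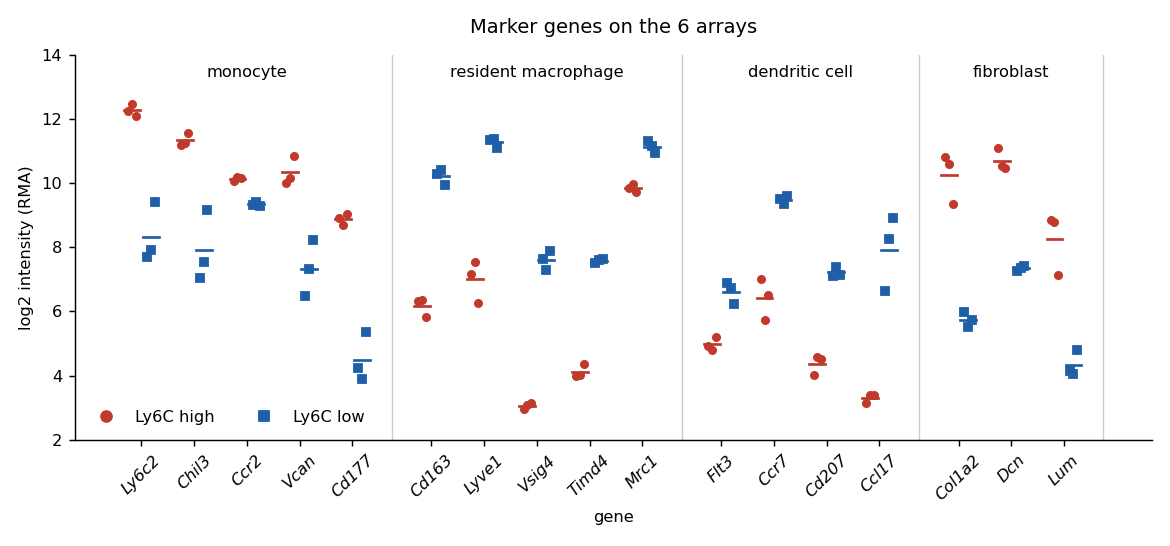
Log2 intensity of marker genes on the 3 Ly6C high (red circles) and 3 Ly6C low (blue squares) arrays, with the gate mean as a bar. The monocyte and fibroblast genes shown stand higher in Ly6C high, the macrophage and dendritic cell genes shown higher in Ly6C low. Ccr2 and Mrc1 are bright in both gates. The dendritic cell genes shown are all among the 6 called higher of 18 measured, and 12 of that list were not called.

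Markers of other cell types moved with the gates. Fibroblast genes were brighter in Ly6C high. The mean over 12 of them was 8.00, 7.41 and 6.83 on high replicates 1 to 3 and 4.99, 4.81 and 4.78 on the low arrays. Of the 12, 10 were lower in low and none higher, against 2.32% and 3.35% of all genes. None was under 4 on all 6 arrays. Col1a2, a chain of type I collagen, was at 10.82, 10.61 and 9.36 in high and at 5.99, 5.50 and 5.72 in low. Its level on high replicate 3 was the lowest of the high arrays and still above all low arrays. Dcn, the matrix proteoglycan decorin, shared the smallest adjusted p of the named genes with haptoglobin (Hp), at 9.78e-05 each, and was 10.2-fold lower in low. Within Ly6C high the list was highest on replicate 1 and lowest on replicate 3. The same order over the high arrays was found for 111 (21.6%) of the genes called lower, for 191 (25.7%) of those called higher and for 3039 (13.7%) of all genes. Besides matrix genes, the lower genes with this order included Irf7, Zbp1, Vegfa, Plac8, Ace, Fcgr1, Igtp, Cxcl12, Ackr3 and Serping1. The part of fibroblasts in the lower gene lists was not tested. Endothelial genes had list means of 4.73 to 5.18 in high and 4.28 to 4.65 in low. Of 10, 1 was called lower, Kdr, against 2.32% of all genes. Its call was lost without 5 of the arrays (up to 0.105 without low replicate 2).

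Eosinophil genes had list means of 3.53 to 3.73 in high and 4.25 to 4.43 in low. Prg2, Ccr3 and Alox15 of 7 were higher and 0 lower, against 3.35% and 2.32% of all genes. Siglecf, the defining surface marker, was at 3.74 to 4.09 in high and 4.28 to 4.52 in low. Epx, the eosinophil peroxidase, was between 3.19 and 3.56 on all 6 arrays. Neutrophil genes had list means of 4.79 to 5.34 in high and 4.95 to 5.80 in low, the highest on low replicate 3. Of 16 members, Retnlg was higher and Mmp8 and Csf3r lower, against 3.35% and 2.32% of all genes. S100a8 was at 6.49, 7.65 and 8.28 in high and at 7.25, 8.57 and 10.37 in low, and S100a9 reached 9.42 on low replicate 3, neither called. Ly6g, the marker sorted against, was at 2.88, 3.28 and 2.91 in high and 2.85, 4.61 and 3.28 in low, and Ngp, a granule protein, was at about the floor of the array, 2.93 to 3.23. The T cell receptor genes Cd3e and Cd3d were at 2.80 to 3.47, and the natural killer cell genes Ncr1 and Klrb1c at 2.60 to 3.22. Of 11 keratinocyte genes, Sfn and Cdh1 were higher in low and 0 were lower, against 3.35% and 2.32% of all genes. These genes were 2.16-fold and 1.86-fold higher (limma adjusted p = 0.00391 and 0.00674), and both kept their calls without each array in turn. Krt14, a defining keratin, was at 5.90 to 8.39 in high and 5.75 to 6.19 in low. None of the 9 B cell, 9 skeletal muscle and 5 platelet or erythroid genes was called. What part these other cells had in the results was not tested.

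**Figure D3:**
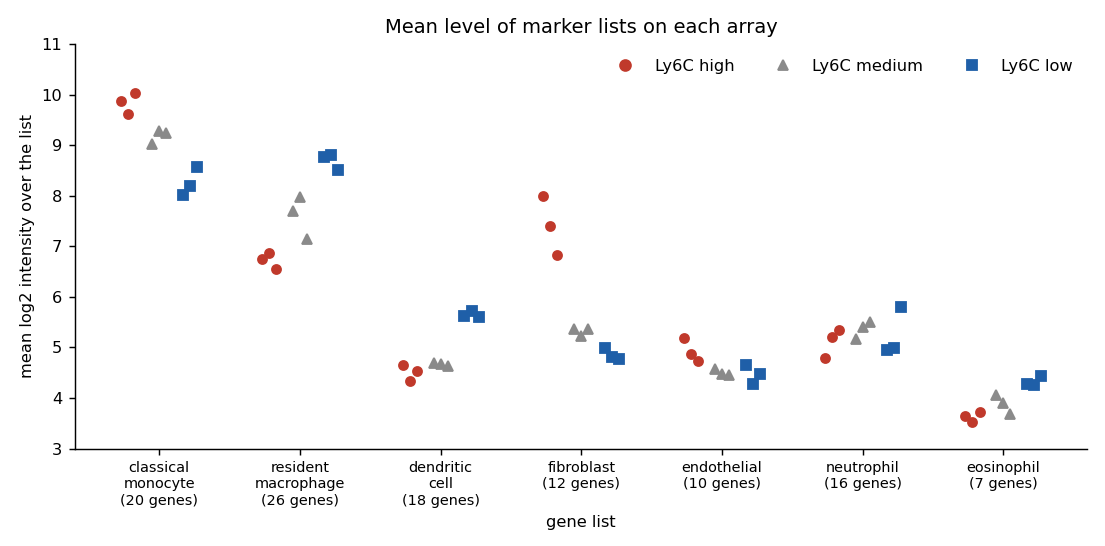
Mean log2 intensity of 7 marker lists on each of the 9 arrays, with Ly6C high in red circles, medium in grey triangles and low in blue squares, replicates 1 to 3 from left to right. The fibroblast list runs from 6.83 to 8.00 in Ly6C high and from 4.78 to 4.99 in low, while the neutrophil list overlaps between the gates.

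Resident macrophage genes were brighter in Ly6C low. Of 26 measured, 21 were higher and 0 lower, against 3.35% of all genes, and the median log2 difference of the list was 1.96. Without each array in turn, 14 to 21 members were called higher. Vsig4, a complement receptor that clears opsonised particles, was at 2.97, 3.08 and 3.15 in high and at 7.63, 7.30 and 7.87 in low. Its high arrays were under every array median while its low arrays were all above 7, a contrast found in no other gene tested. The difference was 4.53 (SE 0.25, limma adjusted p = 0.000105). Timd4, a receptor for phosphatidylserine on dying cells, was at 4.0, 4.03 and 4.35 in high and at 7.5, 7.59 and 7.63 in low (10.9-fold higher, adjusted p = 0.00143). Cd209d, a lectin related to DC-SIGN, was at 4.38, 3.85 and 4.91 in high and at 8.05, 8.26 and 7.93 in low. Folr2, the folate receptor of resident macrophages, was 6.58-fold higher (adjusted p = 0.0023), and the lectin gene Fcna 6.57-fold (adjusted p = 0.00466). Slc40a1, the iron exporter ferroportin, was 4.72-fold higher with low replicate 3 at 5.26 against 6.65 and 6.53. That call was lost without 4 of the arrays (up to 0.077 without low replicate 2). Siglec1, the sialoadhesin of some tissue macrophages, differed by -0.15 and was not called, nor were Cd5l, Selenop, Marco and F13a1.

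Genes outside the macrophage list were among the largest differences. Npl, a sialic acid lyase counted in the lysosome list, was at 5.24, 5.82 and 5.38 in high and at 10.47, 10.15 and 10.11 in low, the largest positive difference among the named genes (4.77, SE 0.32, limma adjusted p = 0.00025). Slc13a3, a transporter of dicarboxylates, was at 5.74, 4.39 and 4.77 in high and at 8.33, 7.93 and 8.17 in low. Gfra2, a co-receptor for the growth factor neurturin, was at 4.56, 4.91 and 4.79 in high and at 7.74, 8.19 and 7.72 in low (8.76-fold, adjusted p = 0.00143). Retnlg, a resistin-like gene also counted as a neutrophil marker, was at 2.90, 2.45 and 3.59 in high and at 5.85, 7.11 and 7.70 in low. Its medium arrays were at 4.18 to 6.36. Pmp22, a membrane protein best known from myelin, was 5.63-fold higher in low (8.15 ± 0.33 and 10.64 ± 0.23, SD, n = 3 each). It was the only member of 5 measured Schwann cell genes to pass, against 3.35% of all genes called higher. S100b of that list overlapped between the gates.

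In the other direction, monocyte genes were brighter in Ly6C high. The classical monocyte list had 20 measured members, of which 16 were lower in low, against 2.32% of all genes, and 1 was higher, with a median difference of -1.47. Without low replicate 1 or low replicate 2, 10 were called lower. The list means were 9.62 to 10.03 in high and 8.01 to 8.57 in low, and replicate 3 was highest in both. Hp, an acute phase protein that binds free haemoglobin, was at 9.98, 9.58 and 9.75 in high and at 7.0, 6.69 and 6.67 in low (log2 difference -2.98, SE 0.15). The haptoglobin gene was higher where the receptor gene Cd163 was lower. Cd177, a surface glycoprotein, was at 8.91, 8.71 and 9.04 in high and at 4.23, 3.88 and 5.37 in low. Plac8 was 4.31-fold and Ms4a4c 4.08-fold lower in low (adjusted p = 0.000188 each), with SDs small in both gates. Ifitm6, an interferon-inducible membrane protein, was 4.82-fold lower (adjusted p = 0.00122), and Fpr2, a receptor for formyl peptides of bacteria and mitochondria, 3.85-fold lower (adjusted p = 0.00304). Ccr2, the receptor that brings monocytes out of the marrow, stayed bright in low, at 9.33, 9.41 and 9.29 against 10.06, 10.19 and 10.16. Lyz1, an isoform of lysozyme, went against the list, at 7.92, 7.98 and 7.45 in high and 10.57, 10.80 and 10.16 in low. Its near-identical neighbour Lyz2 was bright throughout, at 12.17 to 12.37, and probes for the 2 genes may share signal.

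The largest negative difference belonged to Ly6a2, a member of the Ly6 family. It was at 10.23, 9.82 and 10.43 in high and at 5.85, 5.26 and 5.07 in low, a difference of -4.77 (SE 0.26, adjusted p = 9.98e-05). The medium arrays, at 6.81, 6.16 and 6.11, were close to low. Ly6c1, the other gene for Ly6C, was near the floor on every array (2.50 to 3.73).

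Nonclassical monocytes, which patrol the inside of vessels, carry little Ly6C, and a low gate can hold them too. Their 14 measured genes went both ways, with 4 higher and 6 lower, against 3.35% and 2.32% of all genes, and a median of -0.28. The higher ones were Itgax, Cd36, Cx3cr1 and Spn. Cx3cr1 was at 7.45, 6.96 and 7.34 in high and at 8.35, 8.59 and 7.88 in low (2.03-fold, limma adjusted p = 0.0259). That call was lost without 4 arrays (up to 0.0937 without low replicate 1). Itgax, the integrin chain CD11c shared with dendritic cells, was at 5.54, 6.00 and 5.48 in high and at 7.73, 7.57 and 7.80 in low. Ace, angiotensin-converting enzyme, was at 6.78, 6.65 and 6.31 in high and at 3.65, 4.75 and 4.80 in low. Treml4, a receptor of the TREM family, was 3.42-fold lower, a call lost without 2 arrays (up to 0.0666 without low replicate 1). Nr4a1, the factor these monocytes need, overlapped between the gates and was not called (adjusted p = 0.681).

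Dendritic cell genes were brighter in low, with list means of 4.33 to 4.66 in high and 5.61 to 5.71 in low. Of 18 measured, 6 were higher, against 3.35% of all genes, and 0 lower. Ccl17, a chemokine that attracts T cells through CCR4, was at 3.14, 3.39 and 3.41 in high and at 6.64, 8.25 and 8.90 in low. Ccl22, which acts on the same receptor, was at 6.31, 3.96 and 5.98 in high and at 9.65, 9.99 and 10.34 in low. Cd207, the lectin langerin, was at 4.03, 4.57 and 4.53 in high and at 7.12, 7.40 and 7.13 in low (adjusted p = 0.000118). The other 12 measured members were not called. Among them were the dendritic cell marker Zbtb46, and Xcr1 (-0.48) and Siglech (0.30), markers of other dendritic cell classes. Of 16 costimulation and checkpoint genes, 1 was higher and 2 were lower, against 3.35% and 2.32% of all genes. Tnfsf4, the ligand OX40L, was the higher one (3.45 to 3.98 in high, 4.86 to 5.32 in low, adjusted p = 0.00534). Havcr2, the inhibitory receptor TIM-3, and Pvr were lower (differences -0.93 and -0.54), calls lost without 7 and 8 arrays (up to 0.113 for Havcr2, without low replicate 2, and 0.135 for Pvr, without low replicate 1). Cd274, the ligand PD-L1, did not overlap between the gates but missed the threshold (difference -0.89, adjusted p = 0.108). Cd80 and Cd86, the ligands of CD28, overlapped between the gates, with differences of 0.09 and -0.15. The MHC class II list had 5 members higher, against 3.35% of all genes, and 0 lower of 13. Without low replicate 1 or low replicate 2, 1 was called higher, and without low replicate 3 or medium replicate 1, 3 were. H2-DMb2, which edits the peptides loaded on class II, was 4.97-fold higher, while the class II chain H2-Ab1 was at 10.94 or more on every array and 1.77-fold higher. The H2-Ab1 call was lost without 4 of the arrays (up to 0.103 without low replicate 1).

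**Figure D4:**
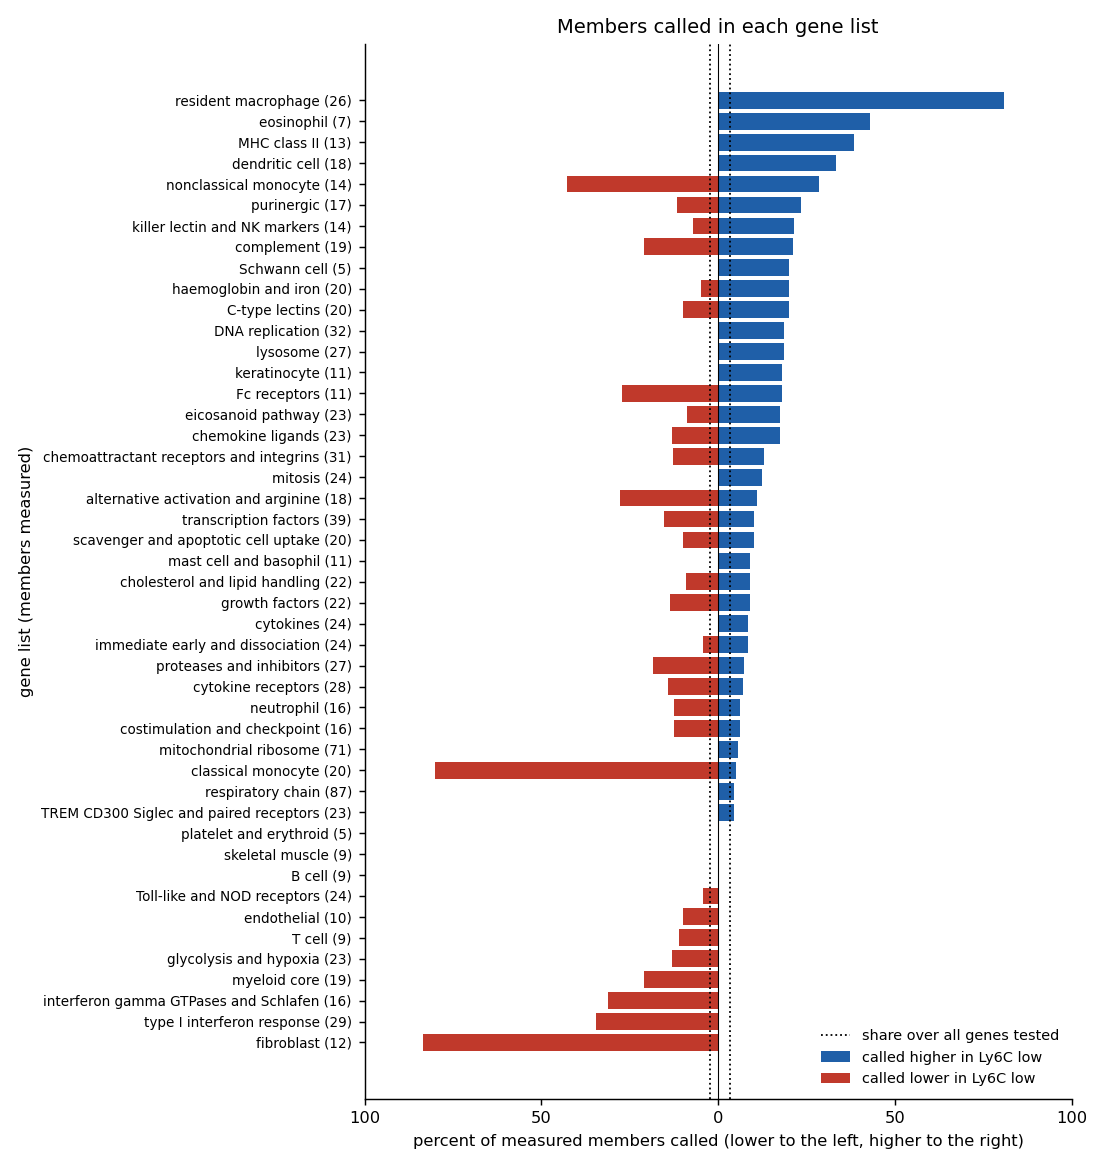
Percent of the measured members of each gene list called lower (red, to the left) or higher (blue, to the right) in Ly6C low, with the number measured in brackets and dotted lines at the shares over all genes tested, 2.32% and 3.35%. The resident macrophage list, with 21 of 26 higher, and the fibroblast and classical monocyte lists, with 10 of 12 and 16 of 20 lower, stand at the ends.

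Transcription factors were named for their part in monocyte and macrophage identity. Of 39 measured, 4 were higher in low and 6 lower, against 3.35% and 2.32% of all genes. Without low replicate 1, 3 were called lower. Irf4, a factor of certain dendritic cells and of macrophages exposed to interleukin 4, was at 4.43, 4.47 and 5.12 in high and at 6.53, 6.98 and 6.42 in low (3.91-fold, adjusted p = 0.00143). Bhlhe41, a repressor of resident macrophages, was 3.04-fold higher (adjusted p = 0.00506), and Klf2 1.76-fold (adjusted p = 0.0125). Runx3 was at 7.63, 7.24 and 7.40 in high and at 6.45, 6.25 and 6.28 in low (adjusted p = 0.0021). The orphan nuclear receptor gene Nr4a2 was 2.12-fold lower (adjusted p = 0.00419) and Nfil3 1.78-fold lower (adjusted p = 0.00364). The calls of Etv5, Bcl6, Tcf7l2 and Cebpb were each lost without 1 to 7 of the arrays (up to 0.142, Tcf7l2 without low replicate 2; Cebpb only without low replicate 1, at 0.0521). Irf8, a factor of monocyte development, overlapped between the gates (difference -0.40, adjusted p = 0.407).

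The C-type lectins, sugar-binding receptors for pathogens and damaged cells, split by member. Of 20 measured, 4 were higher in low and 2 lower, against 3.35% and 2.32% of all genes. Mgl2, which binds galactose-type sugars and marks dermal dendritic cells and macrophages, was at 4.53, 3.47 and 3.62 in high and at 8.61, 9.14 and 8.14 in low (adjusted p = 0.00208). Its paralogue Clec10a differed less, at 5.83, 7.02 and 5.43 in high and 8.57, 8.16 and 8.12 in low. That call was lost without low replicate 1 (0.0611). Colec12, a collectin scavenger receptor, was at 5.85, 5.87 and 5.61 in high and at 8.79, 8.65 and 8.56 in low, with all 3 low arrays close together (7.42-fold, adjusted p = 0.000366). Clec7a, the beta-glucan receptor dectin-1, did not overlap between the gates but missed the threshold (difference -0.87, adjusted p = 0.0616). Clec12a, an inhibitory receptor, was 1.95-fold lower in low (adjusted p = 0.0117).

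Killer cell lectin genes were expressed in both gates, in opposite patterns, while the defining natural killer cell genes were near the floor. Klrb1b, an inhibitory receptor, was at 6.17, 5.30 and 6.04 in high and at 9.64, 9.38 and 9.51 in low (12.7-fold, adjusted p = 0.000178). Klrd1, the CD94 chain, was at 4.96, 4.52 and 5.63 in high and at 8.14, 8.74 and 7.67 in low, and Klrk1, the NKG2D receptor, was 1.92-fold higher. Klra2, a Ly49 family member, was at 8.27, 8.31 and 8.70 in high and at 5.10, 4.77 and 6.44 in low (7.93-fold lower, adjusted p = 0.00244). Of the 14 genes of the list, 7 were under 4 on all 6 arrays. Genes of the Ly49 and Cd209 families are close copies, and their probes may share signal.

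Fc receptors, which bind antibodies, also split. Fcgrt, the neonatal receptor that recycles antibody inside cells, was at 8.87, 8.27 and 7.34 in high and at 11.09, 10.91 and 10.52 in low (6.41-fold, adjusted p = 0.00682). Fcgr4, an activating receptor, was at 8.97, 9.20 and 7.89 in high and at 6.36, 7.28 and 6.30 in low. Its 4.11-fold lower level passed the test (adjusted p = 0.0171), but not without 3 of the arrays (up to 0.0717 without low replicate 1). Fcgr1, the high-affinity receptor, was 1.64-fold lower (adjusted p = 0.0186), also lost without 3 arrays (up to 0.0725 without low replicate 1). Fcgr2b, the inhibitory receptor, and Fcgr3 did not overlap between the gates, with differences of 0.43 and 0.42, but missed the threshold (adjusted p = 0.117 and 0.133). Fcrls and Fcrl1, receptor-like genes, were 4.35-fold higher and 2.17-fold lower, and their calls were lost without 2 and 7 arrays (up to 0.058 and 0.136, both without low replicate 1).

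The complement genes went both ways. The 3 chains of C1q, which starts the classical pathway on antibody and dying cells, were higher in low. C1qa was at 9.92, 9.65 and 9.11 in high and at 11.07, 11.10 and 10.90 in low (2.76-fold, adjusted p = 0.00313). C1qb and C1qc were 2.11-fold and 2.04-fold higher, calls lost without 7 arrays and without high replicate 2 alone (0.12 without low replicate 1, and 0.0511). C4b, the next component, was at 7.91, 6.57 and 5.88 in high and at 9.44, 9.39 and 9.16 in low, lost without 4 arrays (up to 0.0763 without low replicate 1). Serping1, the inhibitor of C1, was at 9.79, 9.21 and 8.45 in high and at 6.24, 5.12 and 5.91 in low. The C1s protease gene C1s1 was at 5.67, 4.89 and 4.79 in high and at 2.89 to 3.24 in low. C7, of the membrane attack complex, was 6.98-fold lower in low, and Cfb, of the alternative pathway, 2.08-fold. The medium means of Serping1, C1s1 and C7 were 5.79, 3.31 and 3.52, near the low means of 5.76, 3.04 and 3.25. Fibroblast genes were also brighter in Ly6C high, and their part in the lower complement genes was not tested. The receptor gene C3ar1 overlapped between the gates at a difference of 0.18.

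For the uptake of dying cells, Mfge8, a bridging protein for phosphatidylserine, was 4.78-fold higher in low (adjusted p = 0.00595). Pros1, a ligand of the TAM receptors, was 2.90-fold higher (adjusted p = 0.000814). Thbd, thrombomodulin, was 2.54-fold lower (adjusted p = 0.00866), and 16 of 20 genes of this list were not called. Itgb5, the remaining call, was lost without 8 arrays (up to 0.122 without low replicate 1). For sensors of microbes, the counts of calls were near the shares over all genes (3.35% higher, 2.32% lower). Of 24 Toll-like and NOD receptor genes, 1 was called lower and 0 higher. It was Tlr9, a sensor of DNA (2.22-fold, adjusted p = 0.0143, lost without 3 arrays, up to 0.0604 without low replicate 1). The list had a median of -0.34 and 3 members with a positive difference, with Tlr4 at -0.28 and Tlr2 at -0.32, neither called. Of 23 TREM, CD300 and Siglec genes, 1 was called higher and 0 lower. It was Cd33 (2.91-fold, lost without 6 arrays, up to 0.124 without low replicate 2).

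Type I interferon response genes were dimmer in Ly6C low. Interferons switch on their targets through the interferon-stimulated response element, a short motif in the promoters of these genes. Of 29 measured genes, 10 were lower in low, against 2.32% of all genes, and 0 were higher. All 29 differences were below 0, with a median of -0.77, and the gates did not overlap for 18, against 8.76% of all genes that did not overlap and were lower. Without high replicate 3 or low replicate 1, 6 were called lower. Irf7, the factor that amplifies interferon production, was at 10.28, 10.25 and 9.79 in high and at 8.07, 8.66 and 8.95 in low (adjusted p = 0.00476). Zbp1, a sensor of Z-form nucleic acid, was at 9.69, 9.59 and 9.43 in high and at 7.59, 8.14 and 8.37 in low (adjusted p = 0.00223). Oas3, which makes the second messenger of RNase L, was at 8.19, 8.28 and 8.21 in high and at 6.78, 7.03 and 7.01 in low (2.44-fold, adjusted p = 0.000374). Stat2, a transcription factor of interferon signalling, was 2.29-fold lower (adjusted p = 0.00389). The gates of these 4 genes did not overlap. Isg15, a ubiquitin-like modifier, was at 9.49, 9.13 and 9.82 in high and at 7.93, 7.88 and 9.14 in low and missed the threshold (adjusted p = 0.149), with replicate 3 the highest array in each gate. Ifit1, an inhibitor of viral translation, was at 7.19, 6.52 and 9.03 in high and at 6.14, 6.07 and 8.53 in low (difference -0.67, 95% confidence interval -2.73 to 1.39). The receptor chain gene Ifnar2 was 1.33-fold lower, lost without 8 arrays (up to 0.139 without low replicate 1).

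Promoter windows are shown for 4 members because all differences of the list had the same sign while its members differed in how far replicate 3 stood apart. They come from RefSeq (GRCm38.p6), run 5′ to 3′ on the gene's strand, and carry in capitals each match to GAAANNGAA, the core letters of the response element, on either strand; overlapping matches run together. Oas3 and Stat2 were called lower, whereas Isg15 and Ifit1 were not called.
Oas3: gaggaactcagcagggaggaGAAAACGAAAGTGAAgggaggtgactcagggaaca
Stat2: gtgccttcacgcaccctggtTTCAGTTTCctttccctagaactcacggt
Isg15: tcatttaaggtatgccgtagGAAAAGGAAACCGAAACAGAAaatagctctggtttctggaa
Ifit1: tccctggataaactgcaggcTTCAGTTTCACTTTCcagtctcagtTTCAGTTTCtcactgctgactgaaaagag
The Oas3 window is chr5:120777700-120777754 on the minus strand, the Stat2 window chr10:128270257-128270305 on the plus strand. The Isg15 window is chr4:156200856-156200916 on the minus strand and the Ifit1 window chr19:34640760-34640833 on the plus strand. Isg15 and Ifit1 held 3 matches each, Oas3 held 2 and Stat2 held 1. Promoters of 300 bases, 250 before and 50 after the start, were found for 16990 of the genes tested, and 1576 (9.28%) held the letters on at least 1 strand. Of the interferon list, 20 had a promoter and 12 (60%) held the letters. They were present for 2 of the 6 called lower and for 10 of the 14 not called. Among all genes called lower, 56 of 399 (14%) held them, and among those called higher, 41 of 605 (6.78%). A match is a description of these windows and not a measured binding site.

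Genes of the interferon gamma GTPases and the Schlafen family, which restrain pathogens and cell growth, included 5 lower and 0 higher of 16 measured. Over all genes 2.32% were lower. The median of the list was -0.49. Slfn1 was at 9.33, 9.48 and 9.41 in high and at 6.41, 6.57 and 7.55 in low (5.91-fold, adjusted p = 0.00142). Slfn4 was at 10.37, 10.52 and 10.84 in high and at 8.33, 8.47 and 9.41 in low (3.57-fold, adjusted p = 0.00675). In both genes low replicate 3 was the low array nearest to high. The calls of Gbp9, Igtp and Slfn5 were lost without 3 to 6 of the arrays (up to 0.124, Gbp9 without low replicate 2). Irgm1 overlapped between the gates.

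Among the best known cytokine genes, Il1b, Tnf and Il10 were bright in both gates, while Il6 was bright in high only. Of 24 measured, Tslp and Il16 were higher in low and 0 were lower, against 3.35% and 2.32% of all genes, with a median of -0.36. With the replicate number fitted as a block, 8 were called lower. Il1b, the interleukin that drives fever and pain in wounds, was at 12.07, 11.96 and 12.42 in high and at 11.61, 11.62 and 11.94 in low. Its gates did not overlap, but the difference of -0.43 (95% confidence interval -0.81 to -0.04) missed the threshold (limma adjusted p = 0.219). Tnf, tumour necrosis factor, was at 10.92, 11.15 and 11.90 in high and at 11.33, 11.29 and 12 in low, a difference of 0.22 (-0.48 to 0.91). Il10, which restrains inflammation, was at 9.46, 9.55 and 10.80 in high and at 9.56, 9.29 and 10.37 in low, a difference of -0.20 (-1.30 to 0.91). Il6, a cytokine of the acute phase, was at 9.42, 9.20 and 10.71 in high and at 7.11, 6.88 and 8.83 in low. Its gates did not overlap and its difference of -2.16 was large, yet the adjusted p was 0.123. Tslp, an alarmin that acts on dendritic cells, passed at 0.0485, a call lost without 8 arrays (up to 0.148 without low replicate 1). Il16, a ligand of CD4, was 1.74-fold higher (adjusted p = 0.0115).

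Several of these cytokine genes were highest on replicate 3 of every gate. This pattern was described after the values were seen. Replicate 3 was highest in all 3 gates, by at least 1 on the log2 scale over the mean of the other two arrays, for 24 genes, against 2 genes for replicate 1 and 2 for replicate 2. Without that margin, replicate 1 was the highest in all gates for 1519 genes (6.85%), replicate 2 for 569 (2.57%) and replicate 3 for 1029 (4.64%). Ifnb1, interferon beta, was at 6.87, 5.86 and 8.87 in high, at 6.41, 5.70 and 9.50 in medium and at 4.57, 2.88 and 8.13 in low. Among the other genes of the 24 were the chemokines Ccl4 and Ccl5, the interleukins Il1a, Il6 and Il23a, the growth factors Csf3 and Lif, and Cxcl10. The interferon targets Ifit1, Rsad2, Oasl1 and Ifih1 were also among them, as were S100a8 and S100a9. Ccl5 was at 9.99, 9.88 and 11.55 in high and at 9.26, 8.92 and 11.05 in low. Of the 24, Tarm1, a receptor of myeloid cells, was called between the gates (4.96-fold lower, adjusted p = 0.0274, lost without 4 arrays, up to 0.0986 without low replicate 1). What set replicate 3 apart was not tested.

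**Figure D5:**
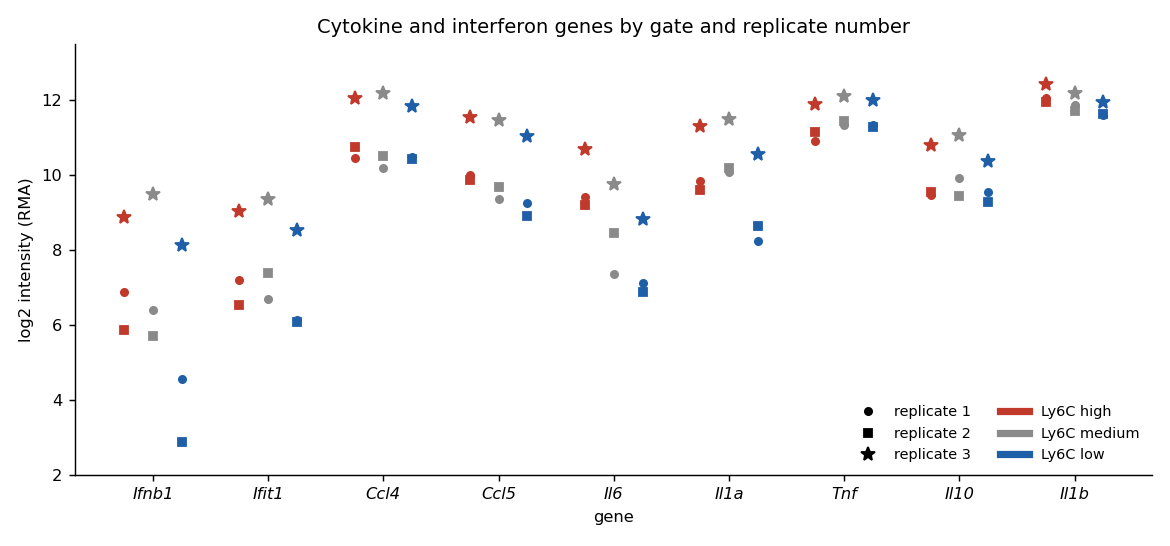
Log2 intensity of 9 cytokine and interferon genes on all 9 arrays, with the gate by colour (red high, grey medium, blue low) and the replicate number by shape. Replicate 3, drawn as a star, is the highest array in each gate for these genes, as in Ifnb1 with 8.87, 9.50 and 8.13.

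Chemokine ligands split into 4 higher and 3 lower of 23, against 3.35% and 2.32% of all genes. Ccl8, made by dermal macrophages, was at 8.80, 8.95 and 8.07 in high and at 11.17, 11.46 and 11.30 in low (6.51-fold higher, adjusted p = 0.00496). Pf4, platelet factor, was 1.75-fold higher (adjusted p = 0.00245), with all 6 arrays above 10. Ccl7, a ligand of CCR2, was 1.80-fold higher and lost its call without 2 arrays (up to 0.063 without low replicate 1). Cxcl13, a chemokine of B cells, lost it without 3 (up to 0.0611 without low replicate 1). Cxcl12, a chemokine of stromal cells, was at 9.57, 8.92 and 8.66 in high and at 5.99, 6.38 and 6.66 in low (adjusted p = 0.0018). Cxcl5, a neutrophil attractant, was 2.66-fold lower (adjusted p = 0.0124). Ccl2, the main ligand of CCR2, was nearly level, at 11.84 ± 0.06 (SD, n = 3) and 11.94 ± 0.05, a difference of 0.10 (95% confidence interval -0.15 to 0.36).

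Among 31 receptors for chemoattractants and integrin chains, 4 were higher in low and 4 lower, against 3.35% and 2.32% of all genes. Itga9, which pairs with a beta chain to bind tenascin, was 2.52-fold higher (adjusted p = 0.00655). Ackr3, a scavenging receptor for Cxcl12, was at 7.11, 6.61 and 6.24 in high and at 5.10, 4.98 and 4.91 in low (adjusted p = 0.00437). Ccr1 was at 9.54, 9.73 and 9.77 in high and at 8.47, 8.60 and 9.08 in low (adjusted p = 0.00904). Itgb7 was 2.34-fold lower (adjusted p = 0.00587), with all high arrays at 8.33 to 8.53. Ltb4r1, the leukotriene B4 receptor, was 2.46-fold lower and lost its call without 6 arrays (up to 0.101 without low replicate 2). Ccr3, S1pr1 and Cxcr3 were higher, with calls lost without 1, 3 and 7 arrays (0.06 for Ccr3 without low replicate 1, and up to 0.0635 and 0.119 without low replicate 2). Of 28 cytokine receptor genes, 2 were higher and 4 lower, against 3.35% and 2.32% of all genes. Tgfbr2, a receptor chain for TGF-beta, was at 7.30, 7.08 and 6.42 in high and at 8.81, 8.71 and 8.56 in low (limma adjusted p = 0.00814). Kit, the stem cell factor receptor, was at 4.29 to 4.40 in high and at 5.18 to 5.36 in low. The 4 lower members, Csf3r, Tnfrsf1b, Il10rb and Ifnar2, lost their calls without 5 to 8 of the arrays (up to 0.152, Tnfrsf1b without low replicate 1).

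Enzymes of lipid mediators went both ways. Alox5, the 5-lipoxygenase of leukotriene synthesis, was at 8.17, 7.83 and 6.59 in high and at 10.51, 10.23 and 10.20 in low (adjusted p = 0.00534). Hpgds, a prostaglandin D synthase, was at 5.65, 5.57 and 5.71 in high and at 7.95, 8.13 and 7.32 in low (4.45-fold, adjusted p = 0.00126). Hpgd, which inactivates prostaglandins, was 4.87-fold higher (adjusted p = 0.00939). Enzymes that make and that break down prostaglandins were therefore both among the higher genes. Ptgs2, the inducible cyclooxygenase, was bright at 11.88, 11.82 and 12.29 in high and 10.80, 10.64 and 11.68 in low, and missed the threshold (adjusted p = 0.0815). The prostacyclin receptor gene Ptgir was 2.05-fold lower (adjusted p = 0.00845). Ptger2, a receptor for prostaglandin E2, was at 8.52, 8.16 and 9.05 in high and at 6.25, 6.26 and 7.64 in low, lost without 6 arrays (up to 0.12 without low replicate 1). Alox15 was higher at a dim level (4.91 to 5.42 in low), lost without 4 arrays (up to 0.0734 without low replicate 2).

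Extracellular nucleotides signal cell damage and act on pain pathways. A list of their receptors, related receptors, enzymes and a channel had 4 higher and 2 lower members of 17 measured. Over all genes the shares were 3.35% and 2.32%. The 4 higher ones are G protein-coupled receptors with P2Y names, not all of them for nucleotides. P2ry10, a receptor for lysophospholipids, was at 4.87, 5.31 and 5.36 in high and at 8.16, 8.20 and 7.45 in low (6.75-fold, adjusted p = 0.000366). P2ry12, the ADP receptor known from platelets and microglia, was at 7.54, 7.62 and 7.33 in high and at 9.64, 9.79 and 9.07 in low (adjusted p = 0.00595). P2ry6, a receptor for UDP, was at 9.34, 8.78 and 8.59 in high and at 10.46, 10.35 and 10.25 in low (adjusted p = 0.0025). P2ry13 was 4.67-fold higher, lost without 5 arrays (up to 0.0653 without low replicate 2). The ATP-gated channel genes P2rx4 and P2rx7 were not called (differences 0.27 and 1.17, 95% confidence intervals -0.10 to 0.64 and 0.33 to 2.00). For P2rx7, low replicate 3 at 7.57 lay among the high arrays, which reached 7.81. Nt5e, the enzyme CD73 that makes adenosine, was 2.62-fold lower in low (adjusted p = 0.00503), with its high arrays at 7.95, 7.69 and 7.40. Panx1 was the other lower member, and without each array in turn 1 to 2 members were called lower.

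Growth factor genes parted by member, with 2 higher and 3 lower of 22, against 3.35% and 2.32% of all genes. Pdgfc, a platelet-derived growth factor, was at 5.30, 4.51 and 6.09 in high and at 7.52, 7.32 and 8.01 in low (4.97-fold, adjusted p = 0.00646). Igf1, an insulin-like growth factor of repair macrophages, was 4.08-fold higher, lost without 3 arrays (up to 0.0827 without low replicate 1). Nrg1, neuregulin, which acts on Schwann cells and epithelium, was at 8.78, 8.80 and 9.54 in high and at 6.01, 6.56 and 6.25 in low (6.81-fold lower, adjusted p = 0.000387). Vegfa, which drives vessel growth, was at 9.71, 9.62 and 9.45 in high and at 8.49, 8.02 and 8.31 in low (adjusted p = 0.00169). Hgf lost its call without 8 arrays (up to 0.134 without high replicate 1).

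Of 27 proteases and inhibitors, 2 were higher and 5 lower, against 3.35% and 2.32% of all genes. Timp2, an inhibitor of matrix proteases, was 3.51-fold higher (adjusted p = 0.00503). Mmp8, the neutrophil collagenase, was at 7.89, 8.00 and 8.52 in high and at 5.15, 4.72 and 6.18 in low (adjusted p = 0.00222). Mmp2, a gelatinase of stromal cells, was at 8.95, 7.75 and 7.0 in high and at 4.94, 4.0 and 4.91 in low (adjusted p = 0.00393). The calls of Mmp12, Adamts1, Adam8 and Mmp19 were lost without 4 to 9 of the arrays (up to 0.133, Adamts1 without high replicate 1). Of 18 alternative activation and arginine genes, 2 were higher and 5 lower, against 3.35% and 2.32% of all genes. Of their differences, 3 were above 0, with a median of -0.32. Arg2, the mitochondrial arginase, was at 9.80, 9.75 and 10.23 in high and at 7.16, 7.63 and 8.61 in low (4.37-fold lower, adjusted p = 0.0066). Arg1 was at 10.22 ± 0.23 (SD, n = 3) and 9.85 ± 0.55, a difference of -0.37 (95% confidence interval -0.92 to 0.18). Retnla, a resistin-like protein induced by interleukin 4, was at 3.53, 5.76 and 3.99 in high and at 8.92, 9.89 and 7.97 in low. Its gates were far apart but its spread was wide (SE 1.10), and the call (adjusted p = 0.0476) was lost without 7 arrays (up to 0.157 without low replicate 2). Flt1, a VEGF receptor, was 1.96-fold lower (adjusted p = 0.0102), and the calls of Tgm2 and Socs3 were lost without 8 and 4 arrays (up to 0.135 and 0.0938, both without low replicate 1).

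Among 20 genes for haem and iron handling, 4 were higher and 1 lower, against 3.35% and 2.32% of all genes. Tfrc, the transferrin receptor that takes iron up, was at 6.30, 7.01 and 6.84 in high and at 8.70, 8.60 and 8.23 in low (3.47-fold, adjusted p = 0.00494). The calls of Aco1, Blvra and Blvrb were lost without 1 to 4 of the arrays (up to 0.0821, Blvrb without low replicate 2; Blvra only without low replicate 2, at 0.0552). Hmox1, haem oxygenase, was bright and level, at 12.50, 12.54 and 12.62 in high and 12.51, 12.44 and 12.47 in low (difference -0.08, 95% confidence interval -0.28 to 0.12). Fth1, the ferritin heavy chain, was likewise at 12.56 to 12.73 on all 6 arrays. Steap4, a metalloreductase, was 3.15-fold lower (adjusted p = 0.00229). In lipid handling, Pltp, which transfers phospholipids, was at 9.20, 9.38 and 8.34 in high and at 11.11, 10.88 and 10.59 in low (adjusted p = 0.00595), while the cholesterol exporter gene Abca1 differed by 0.00 (-0.28 to 0.29). Other calls of that list were lost without 1 to 7 arrays (up to 0.127, Lpcat2 without low replicate 1; Sqle only without low replicate 1, at 0.052).

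Glycolysis and hypoxia genes included 3 lower and 0 higher of 23, against 2.32% of all genes lower, with a median of -0.40. The gates did not overlap, with low below high, for 11, against 8.76% of all genes. Hif1a, the hypoxia-inducible factor, was at 10.30, 10.47 and 10.46 in high and at 9.05, 9.25 and 9.51 in low (adjusted p = 0.0021). Slc2a1, a glucose transporter, was at 11.72, 11.19 and 11.35 in high and at 10.29, 10.04 and 10.39 in low, and Ero1a, an oxidase of the endoplasmic reticulum, was 2.86-fold lower. Mitochondrial genes had mostly positive differences. Of 87 respiratory chain genes, 4 were called higher and 0 lower, close to the 3.35% over all genes. Of their differences, 68 were above 0, with a median of 0.20 against 0.012 over all genes. Without high replicate 1, 8 were called higher, and without high replicate 2 or 3, low replicate 2 or 3 or medium replicate 3, 0 were. Of 71 mitochondrial ribosome genes, 4 were higher, near the 3.35% over all genes, and 0 lower. Of their differences, 64 were above 0, with a median of 0.45 (0.35 after quantile normalization) against 0.012 over all genes. Without high replicate 1, 9 were called, and without high replicate 3 or low replicate 2, 2 were. Mrpl11 was at 6.08, 5.58 and 5.56 in high and at 6.86, 6.65 and 6.94 in low (adjusted p = 0.00913), and Mrps27 was 2.14-fold higher. The other calls of these lists were lost without 6 or 8 of the arrays (up to 0.142, Atp5g2 without low replicate 1).

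Of 27 lysosomal genes, 5 were higher, against 3.35% of all genes, and 0 lower. Atp6v0d2, a subunit of the proton pump, was at 3.43, 3.07 and 3.16 in high and at 5.54, 5.51 and 5.29 in low (4.69-fold, adjusted p = 0.0021), and the subunit gene Atp6v0a1 was 2.97-fold higher. The calls of Ctsk and Cd63 were lost without 6 and 5 arrays (up to 0.113 and 0.0864, both without high replicate 3). Lamp1 and Ctsd, general lysosomal genes, differed by 0.06 (95% confidence interval -0.15 to 0.27) and 0.02 (-0.25 to 0.29).

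Replication and division genes that passed the test were all brighter in low, at modest to low levels. Of 32 replication genes, 6 were higher, against 3.35% of all genes, and 0 lower. Of their differences, 30 were above 0, with a median of 0.50 against 0.012 over all genes. Without each array in turn 5 to 13 were called higher, with 13 without low replicate 3. With only the 6 arrays compared, 3 were. Mcm6, a helicase subunit, was at 6.21, 5.33 and 5.07 in high and at 8.12, 7.40 and 7.10 in low (adjusted p = 0.0108). Mcm3 was at 5.94, 5.59 and 5.17 in high and at 7.30, 7.02 and 7.12 in low (adjusted p = 0.0019). Pcna, the sliding clamp, was level at 9.70 to 9.89 on all 6 arrays. Of 24 mitosis genes, 3 were higher, against 3.35% of all genes, and 0 lower. Without low replicate 2, 1 was called higher, and without low replicate 3, 9 were. Birc5, survivin, was among the 3, near the floor at 3.24 to 3.37 in high and 3.87 to 4.22 in low. Mki67, the proliferation antigen, did not overlap between the gates but missed the threshold (difference 1.02, adjusted p = 0.103). The calls of Lig1, Top2a and Kif20a were lost without 5, 8 and 1 arrays (up to 0.1 and 0.162 without low replicate 1, and 0.055 for Kif20a without low replicate 2). Immediate early and heat shock genes, which tissue digestion can switch on, gave 2 higher and 1 lower of 24. Over all genes the shares were 3.35% and 2.32%. Hspa1a and Egr1 were 2.39-fold and 2.02-fold higher, lost without 2 and 6 arrays (up to 0.0725 and 0.109, both without low replicate 1). Fos and Jun differed by 0.17 and -0.27 and were not called.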

How the data were processed

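The deposited values are log2 intensities per probe set that the authors made with RMA, per the submitters' processing notes; its version and settings are not given in the sources used here. The log2 scale was read from the range of the values, and medians of 3.93 to 4.1 show that arrays are not centred. Values were used as deposited. Exactly 1 gene symbol was listed for 23521 of 41345 probe sets, several for 1814 and none for 16010, and the latter 2 kinds were left out. RefSeq (GRCm38.p6) identifiers matched for 23328 and changed 0 symbols. For 1082 of 22180 genes with more than 1 probe set, the brightest by mean over the 9 arrays was used. Ly6C low minus Ly6C high was tested in a two-sided limma 3.58.1 fit (R 4.3.3, lmFit, eBayes) of all 9 arrays with 6 residual degrees of freedom. P-values were adjusted by Benjamini-Hochberg over 22180 genes at a threshold of 0.05. The procedure was tested on simulated data.

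There were 47 gene lists with 1067 members, 992 of them measured; the other 75 were not analysed here. The members and lists were chosen with earlier results of these data known, so lists are described by counts and medians, without a set test. Genes were named by a rule: the markers, the 15 largest differences each way without overlap (predicted models left out), the 10 smallest adjusted p-values, and per list its first 3 members and up to 4 largest calls. Genes named beyond it were chosen after their values were seen. Same-numbered arrays were not taken as pairs. Alternatives were another normalization, centring, probe set means, filters on dim genes, other priors and weights, only the 6 arrays, a replicate block, and leaving out each array in turn.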

Additional observations from a re-analysis of the deposited data

How the results depend on the processing

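No alternative turned the sign of a called gene named here, although the mean over all probe sets turned 1 of the 1258 calls. The count of called genes was 644 with only the 6 arrays compared, a fit with fewer degrees of freedom, and 618 of the 1258 genes were among those calls. The other fits over all 22180 genes and 9 arrays called between 1172 (a trended and robust prior) and 1564 (replicate block). Without each array in turn the count ran from 596 to 1243, and at least 2-fold from 394 to 704. Genes at or under the array median throughout a gate and bright throughout the other numbered 0 each way. With bright taken as a log2 value of 7, 1 was bright in low, and without each array in turn 0 to 1 each way. With the core promoter letters followed by 1 further A, the shares with a match were 3.87% over all genes, 9.27% among genes called lower and 2.15% among those called higher.

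The replicate number was also fitted as a block. Deviations from the gate means correlated at -0.0166 to 0.309 over the 9 pairs of same-numbered arrays, 4 of them over 0.1, and 5 of the 9 arrays correlated best with an array of their own number. The labels state no pairing, and the arrays were not taken as paired in the main fit. With the block, 8 of the 24 cytokine genes were called lower in place of 0, Il1b (limma adjusted p = 0.0424) among them, and Ptgs2 (0.0108) and Isg15 (0.0152) also passed. Cd274 (0.00544) and Clec7a (0.0114), which missed the threshold in the main fit, were called lower with the block. S100a8 (0.0409) and S100a9 (0.00809) were then called higher in low. Of the genes named by rule, 10 gained a call with the block and 7 lost it. Protease genes called lower numbered 11 with it against 5, and glycolysis and hypoxia genes 8 against 3. The design's comparison of protein sequences was not run. The number of arrays limits the precision, with a median width of the 95% confidence interval of 0.67 over all genes.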

Other observations

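Probe sets without a gene of their own were read as well. Of 17824 such probe sets, 71 were called higher in Ly6C low and 73 lower (0.808% together, limma). They were fitted together with the genes, and p-values were adjusted over both kinds. The 5.67% of genes called came from the fit of the genes alone, so these shares rest on different adjustments.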
